A study of Homo sapiens with 8 samples.

Results

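Alternative exons were followed in 9 genes of clathrin-mediated endocytosis and membrane fission: CLTA, CLTB, CLTC, AP2B1, PICALM, EPN2, ITSN1, DNM2 and DNM1L. Every skipped-exon event that the deposited tables list under these gene symbols was taken, which gave 205 of 123924 events and 133 exons. An event is an exon together with the 2 neighbouring exons to which it is spliced, so an exon can stand in several events that share reads. Of the 205 events, 158 were in the MCF10A table and 162 in that of HMLE TWIST. MCF10A is a breast epithelial line that does not form tumours. HMLE TWIST are breast epithelial cells that were immortalised and carry an integrated retroviral pBabe vector from which the transcription factor TWIST is overexpressed. Each line received DMSO, the solvent, or 10 µM emetine, an alkaloid that blocks protein synthesis, for 24 hours. The 4 groups hold 2 libraries each of polyadenylated RNA, described by the submitters as biological replicates. The series screened for compounds that alter splicing through RNA G-quadruplexes, structures formed by runs of guanine.

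Clathrin forms the coat of endocytic vesicles from heavy chains (CLTC) and light chains (CLTA, CLTB). Adaptors connect the coat to the membrane and its cargo, among them the beta subunit of the AP2 complex (AP2B1), the phosphoinositide-binding protein PICALM and the membrane-bending protein EPN2. ITSN1, intersectin, is a scaffold that gathers adaptors and dynamin at the pit, and the GTPase DNM2, a dynamin, cuts the vesicle from the membrane. DNM1L is a dynamin-related GTPase best known for dividing mitochondria and peroxisomes. Several of these genes carry short cassette exons whose use differs between tissues, for example the exons of the light chains that are included mainly in neurons.

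The exons on which the results turn are printed 5′ to 3′ on the transcribed strand, with capitals marking runs of 3 or more G, the sequence feature named by the study. The letters come from GENCODE 29 transcripts (GRCh38), and the coordinates are those of the deposited events (GRCh37, per the submitters' processing notes). The DNM2 exon lies at chr19:10919245-10919256, the PICALM exons at chr11:85689113-85689136 and chr11:85685751-85685855, and the AP2B1 exon at chr17:33997876-33997917. The DNM1L exons lie at chr12:32890799-32890876 and chr12:32891198-32891230, and the CLTC exon at chr17:57764362-57764382. PICALM is on the minus strand and the others are on the plus strand.
DNM2 12 nt exon: GGGGagatcctg
PICALM 24 nt exon: aatggcatgcattttccacaatac
PICALM 105 nt exon: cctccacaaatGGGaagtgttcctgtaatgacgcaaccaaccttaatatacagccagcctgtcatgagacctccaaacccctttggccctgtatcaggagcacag
AP2B1 42 nt exon: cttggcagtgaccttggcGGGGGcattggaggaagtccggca
DNM1L 78 nt exon: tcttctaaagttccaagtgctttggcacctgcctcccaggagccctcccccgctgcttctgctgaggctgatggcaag
DNM1L 33 nt exon: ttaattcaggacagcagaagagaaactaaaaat
CLTC 21 nt exon: gttgatgcaataaaggaaaag

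The motif GGG is present in the exons of DNM2, AP2B1 and PICALM (105 nt) and in none of the other 4 of these 7. It is also in the 83 nt exon of ITSN1, printed with its results. Among tested exons of the same length it was found in 11.1% of 27 exons of 12 nt, 38.6% of 101 exons of 42 nt and 67.0% of 212 exons of 105 nt, and in 55.7% of 201 exons of 83 nt. For the lengths of the 4 exons without it, the shares were 20.4% (24 nt), 3.12% (21 nt), 22.2% (33 nt) and 54.02% (78 nt). On the opposite strand, read as CCC, it was found in 11.1%, 29.7%, 69.3% and 54.7% of exons of 12, 42, 105 and 83 nt. These are matches of letters within the exon only.

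The level of an exon is given as its inclusion level in an event, on a scale from 0 (always skipped) to 1 (always included). It is computed from junction reads as the share of the included form among both forms of that event, not among all transcripts of the gene. Inclusion reads come from the junctions on both sides of the exon. Those of either side can also stem from transcripts in which the exon has another neighbour on the other side. An event was tested where every library had at least 20 reads and the rarer form had at least 10 reads over the libraries compared. It was called changed where the inclusion level moved by at least 0.1 with an adjusted p-value under 0.05 in a quasi-binomial model. Where an exon stands in several events, the event tested in the most comparisons, then the deepest, represents it. By this rule 59 exons were tested in at least 1 comparison and 51 of these were found in GENCODE 29. In untreated MCF10A 29 of 56 exons had a level of 0.95 or more, 17 had 0.05 or less and 10 lay between. In untreated HMLE TWIST these counts were 30, 18 and 11 of 59. In at least 1 of the 4 groups 22 exons lay between 0.05 and 0.95, of which 13 had a length divisible by 3, as did 26 of the 59.

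Few of these exons changed under emetine; those that did belong to PICALM, ITSN1, DNM2 and DNM1L, and most tested exons of these genes were not called. In MCF10A 4 of 56 tested events changed, or 7.14% against 13.5% of all 25522 events tested. Of the 4, 3 rose and 1 fell, where 8.18% of all events rose and 5.31% fell. In HMLE TWIST 6 of 63 changed, or 9.52% against 14.7% of all 30290. There 2 rose and 4 fell, against 6.5% and 8.19% of all events. The median absolute change over the tested events of the 9 genes was 0.0192 in MCF10A and 0.0170 in HMLE TWIST, beside 0.0239 and 0.0255 over all events. A second test, limma on the log2 odds of inclusion, called 1 of these events in MCF10A and 3 in HMLE TWIST, with 7.88% and 9.94% of all events called. Without the second listed MCF10A DMSO library 2 events were called in MCF10A. A dispersion estimated from all libraries together with a replicate block called none in either line.

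**Figure D1:**
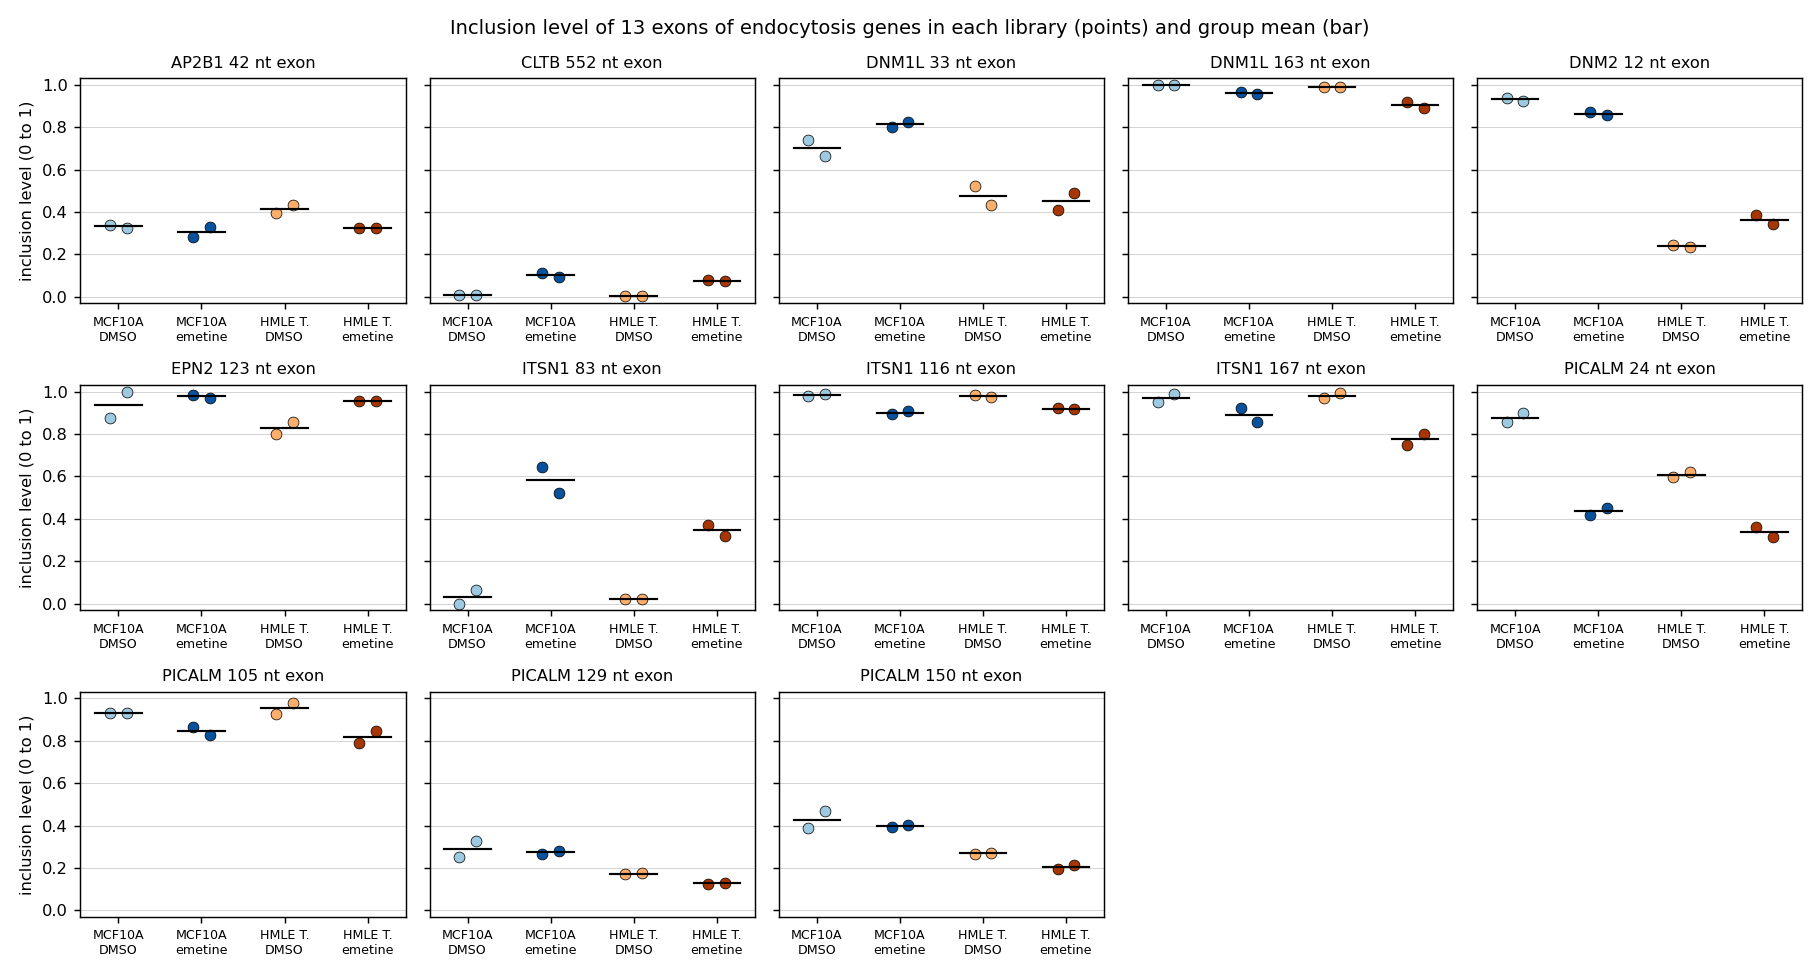
Inclusion level (0 to 1, y axis) of the 13 exons described in full, in each of the 8 libraries. Points are libraries, bars are means of 2, and HMLE T. stands for HMLE TWIST. The DNM2 12 nt exon separates the lines, the PICALM 24 nt exon is lower under emetine in both, and the ITSN1 83 nt exon is near 0 in the DMSO libraries and above 0.3 under emetine.

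**Figure D2:**
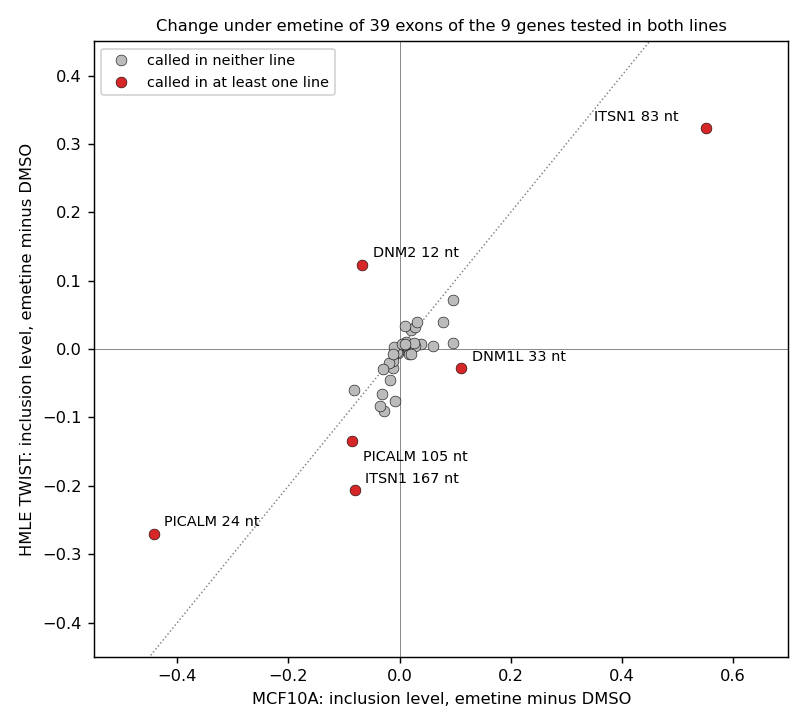
Change of inclusion level under emetine (emetine minus DMSO) in MCF10A (x axis) and HMLE TWIST (y axis) for the 39 exons tested in both. Each point is an exon and the dotted line marks equal change. Red points are the 6 exons called in at least 1 line; the DNM2 12 nt exon lies on opposite sides of 0 in the lines.

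Among the adaptors, PICALM showed the strongest loss of an exon. Its 24 nt exon, found in protein-coding transcripts and with a length that keeps the reading frame, had inclusion levels of 0.858 and 0.898 in the MCF10A DMSO libraries and of 0.418 and 0.452 under emetine. In HMLE TWIST it had 0.596 and 0.620 with DMSO and 0.362 and 0.315 under emetine. The 4 groups do not overlap, and their order was MCF10A DMSO, HMLE TWIST DMSO, MCF10A emetine and HMLE TWIST emetine. The level fell by 0.443 in MCF10A (adjusted p = 6.29e-59) and by 0.270 in HMLE TWIST (adjusted p = 4.91e-25). limma gave adjusted p-values of 0.0177 and 0.0517 for these, so that it did not call the second. The falls differed between the lines by 0.173 (adjusted p = 1.26e-07 for the line by treatment term, 0.259 with limma). That term is tested on the log odds of inclusion, while the differences given, here and below, are of levels. Each library of this event held at least 497 reads.

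The 105 nt exon of PICALM lies 2 exons further toward the 3′ end. Its event has as neighbours the exon after it and the exon before the 24 nt and 60 nt exons, and its skipping reads skip all of these. Most of its inclusion reads come from the junction to the exon after it, which transcripts with the 60 nt exon share. Fewer join it directly to the exon before the 24 nt and 60 nt exons. Its levels were 0.932 and 0.933 in MCF10A with DMSO and 0.866 and 0.829 under emetine. HMLE TWIST had 0.927 and 0.979 with DMSO and 0.791 and 0.846 under emetine. In both lines the emetine libraries lay below the DMSO libraries. The fall of 0.135 in HMLE TWIST passed the test (adjusted p = 1.69e-09, 0.0750 with limma), while the change of -0.0853 in MCF10A did not reach 0.1 (adjusted p = 0.00156). The line by treatment term had an adjusted p of 0.574, so a difference between these changes in log odds was not shown. Spliced from the 60 nt exon, in an event with at least 939 reads per library, the 105 nt exon was nearly always included. Its mean levels there were 0.998 and 1 in MCF10A with DMSO and emetine and 0.999 and 0.999 in HMLE TWIST. That event had too few skipping reads for the test.

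Between these exons lies the 60 nt exon of PICALM (chr11:85687666-85687725), which was named after its values were seen. Spliced next to the 105 nt exon it had mean levels of 0.963 ± 0.0366 and 0.955 ± 0.00166 in MCF10A with DMSO and emetine, and of 0.941 ± 0.00609 and 0.865 ± 0.00233 in HMLE TWIST (mean ± SD of 2 libraries, here and below). A second event has the exon after the 105 nt exon as its 3′ neighbour. There the 60 nt exon had 0.564 ± 0.0871 and 0.689 ± 0.0577 in MCF10A and 0.864 ± 0.107 and 0.673 ± 0.0534 in HMLE TWIST. Reads that join the 60 nt exon past the 105 nt exon were nearly absent, as the levels of the 105 nt exon spliced from it show. The inclusion reads of the second event thus come mostly from the junction before the 60 nt exon, which transcripts with the 105 nt exon share. The skipping junction of the second event, and so its skipping reads, are those of the 105 nt event with the fall described above. This second event fell in HMLE TWIST by 0.191 (adjusted p = 0.000137). The difference of its changes between the lines was -0.316 (adjusted p = 0.0100). The event held as few as 47 reads in a library. limma called neither (adjusted p = 0.150 and 0.295), and the fall lost its call without 1 HMLE TWIST DMSO library, the second listed (adjusted p = 0.0939).

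A further alternative region of PICALM has an exon of 150 nt with an inner 3′ splice site that shortens it to 129 nt (chr11:85701293-85701442 and chr11:85701293-85701421). The longer form is printed with the 21 nt that the shorter form lacks in capitals.
PICALM 150 nt exon: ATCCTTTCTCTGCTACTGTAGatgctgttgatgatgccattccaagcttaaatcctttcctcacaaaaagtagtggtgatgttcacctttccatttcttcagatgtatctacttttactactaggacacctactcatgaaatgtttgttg

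The 150 nt form had levels of 0.387 and 0.468 in MCF10A with DMSO, 0.391 and 0.402 under emetine, 0.268 and 0.272 in HMLE TWIST with DMSO and 0.193 and 0.214 under emetine. The HMLE TWIST libraries lay below all MCF10A libraries. The change under emetine was -0.031 in MCF10A (adjusted p = 0.282) and -0.0662 in HMLE TWIST (adjusted p = 0.000151), both short of 0.1. The 129 nt form, whose events share the skipping junction, had mean levels of 0.291 ± 0.0543, 0.273 ± 0.0128, 0.173 ± 0.00267 and 0.127 ± 0.00524 in the same order of groups. A 126 nt exon nearer the 5′ end had mean levels of 0.0201 and 0.0806 in MCF10A and of 0.0180 and 0.0222 in HMLE TWIST. Apart from the 24, 60, 105, 129 and 150 nt exons, the tested exons of PICALM stayed within 0.0606 of their DMSO level in MCF10A and 0.0342 in HMLE TWIST.

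**Figure D3:**
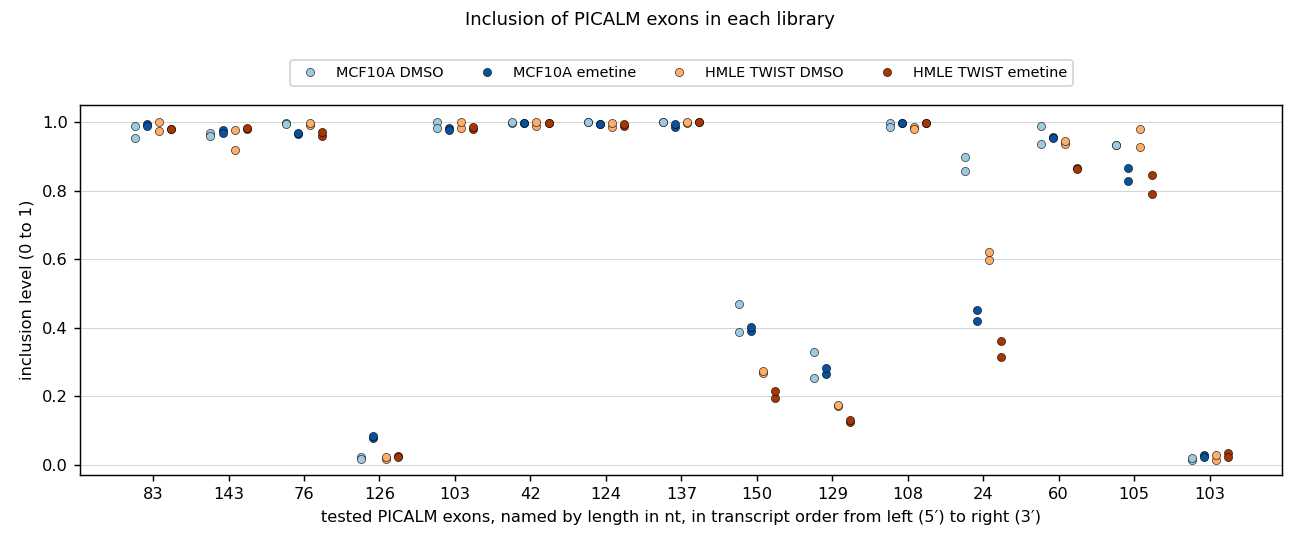
Inclusion level (y axis) of the 15 tested PICALM exons in each library, by exon in transcript order from 5′ to 3′ (x axis, named by length in nt). Points are libraries coloured by group. The exons of 150, 129 and 24 nt have levels far from both 0 and 1, the 60 nt exon is lowest in HMLE TWIST under emetine, and the 105 nt exon is lower under emetine than with DMSO in both lines.

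The 42 nt exon of AP2B1 is the exon whose run of 5 G is printed above. It had levels of 0.339 and 0.326 in MCF10A with DMSO and 0.282 and 0.329 under emetine, and of 0.393 and 0.435 in HMLE TWIST with DMSO and 0.323 and 0.324 under emetine. The MCF10A groups overlapped, and in HMLE TWIST the emetine libraries were lower. The change of -0.0907 in HMLE TWIST had an adjusted p of 1.40e-06 (0.355 with limma) and lay just under the threshold of 0.1; that in MCF10A was -0.0272 (adjusted p = 0.141). An exon of 135 nt with an inner splice site that leaves 86 nt, annotated only in decay-target transcripts, was rare throughout. The 135 nt form had mean levels of 0.0117 ± 0.0018 and 0.0508 ± 0.00555 in MCF10A and of 0.00666 ± 0.00155 and 0.0147 ± 0.00689 in HMLE TWIST. Decay-target is GENCODE's class for transcripts with a premature stop codon that nonsense-mediated decay is predicted to remove. For exons annotated only in this class, here and below, whether their transcripts were made more often or lost more slowly was not tested.

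In EPN2 the 123 nt exon (chr17:19185268-19185390) had an intermediate level only in the event that skips to a distant downstream exon. There it had 0.878 and 1 in MCF10A with DMSO and 0.985 and 0.969 under emetine, and 0.802 and 0.857 in HMLE TWIST with DMSO and 0.957 in both libraries under emetine. The HMLE TWIST groups were apart by 0.128, which the quasi-binomial model did not call (adjusted p = 0.0662) and limma did (adjusted p = 0.0389). The event held as few as 86 reads in a library, and in MCF10A it had too few skipping reads for the test. None of the 6 and 8 events of EPN2 tested in MCF10A and HMLE TWIST was called by the model.

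In ITSN1 the inclusion level of an exon was higher under emetine in both lines. The exon of 83 nt (chr21:35201272-35201354, plus strand) is annotated in GENCODE 29 only in a decay-target transcript. Its sequence is printed with the stop codon at positions 11 to 13, counted from the 5′ end of the exon, and its run of 3 G in capitals.
ITSN1 83 nt exon: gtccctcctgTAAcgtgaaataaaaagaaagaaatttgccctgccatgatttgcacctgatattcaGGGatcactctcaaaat

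Its inclusion levels were 0 and 0.0649 in MCF10A with DMSO and 0.645 and 0.522 under emetine. HMLE TWIST had 0.0226 and 0.0203 with DMSO and 0.372 and 0.318 under emetine. The DMSO libraries of both lines were near 0 and every emetine library was above 0.3. The level rose by 0.551 in MCF10A (adjusted p = 1.91e-23, 0.0549 with limma) and by 0.323 in HMLE TWIST (adjusted p = 4.65e-20, 0.0113 with limma). The rises differed by -0.228 in level. The line by treatment term, tested on log odds, did not pass (adjusted p = 0.713), so a difference on that scale was not shown. As few as 71 reads covered this event in a library.

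The exons most like it in level over the 8 libraries, among 16811 exons of other genes, were a 29 nt exon of SF3B3, a 160 nt exon of BRD9 and an 86 nt exon of RBPMS. Their root mean square differences from it were 0.0360, 0.0464 and 0.0622. The SF3B3 exon had levels of 0.0253 and 0.0246 in MCF10A with DMSO and 0.567 and 0.551 under emetine, and of 0.0214 and 0.0161 and then 0.394 and 0.345 in HMLE TWIST. SF3B3 encodes a subunit of the U2 small nuclear ribonucleoprotein, and BRD9 a bromodomain protein of chromatin remodelling complexes.

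The 167 nt exon of ITSN1 (chr21:35195791-35195957) was lower under emetine where it is spliced to the next exon, of 46 nt. There it had 0.951 and 0.990 in MCF10A with DMSO and 0.924 and 0.855 under emetine, and 0.969 and 0.993 in HMLE TWIST with DMSO and 0.749 and 0.800 under emetine. The 2 HMLE TWIST emetine libraries were the lowest of the 8. The fall of 0.206 in HMLE TWIST passed both tests (adjusted p = 6.60e-09, 0.0226 with limma), and the change of -0.0809 in MCF10A did not (adjusted p = 0.0536). A second event has a later exon, past the 46 nt exon, as its 3′ neighbour. There the 167 nt exon had 0.495 and 0.447 in MCF10A with DMSO and 0.574 and 0.650 under emetine, and 0.513 and 0.542 in HMLE TWIST with DMSO and 0.502 and 0.512 under emetine. These changes of 0.141 and -0.0207 were not called (adjusted p = 0.0697 and 0.766), with at least 132 reads in each library. Reads that join the 167 nt exon to that later exon were nearly absent, with the 46 nt exon included between them at 0.953 to 1 in every library. The levels of the second event thus rest mostly on the junction before the 167 nt exon, which transcripts with the 46 nt exon share. The 116 nt exon further 5′ (chr21:35140017-35140132) had mean levels of 0.983 ± 0.00803 and 0.901 ± 0.0115 in MCF10A and of 0.979 ± 0.00409 and 0.918 ± 0.00345 in HMLE TWIST. Its changes of -0.0821 and -0.0605 had adjusted p-values of 0.000799 and 0.00276 and stayed under 0.1.

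DNM2 held the largest difference between the untreated lines among the 46 events of these genes compared. Its 12 nt exon, which keeps the reading frame and is present or absent in protein-coding transcripts, had levels of 0.938 and 0.926 in MCF10A with DMSO and 0.871 and 0.857 under emetine. In HMLE TWIST it had 0.245 and 0.236 with DMSO and 0.386 and 0.343 under emetine. It was thus included in most MCF10A transcripts and in a minority of those of HMLE TWIST, with no overlap between any groups. Under emetine the level rose by 0.124 in HMLE TWIST (adjusted p = 1.24e-11, 0.191 with limma). In MCF10A the change was -0.0679, under the threshold of 0.1 (adjusted p = 8.48e-06, 0.118 with limma). The changes differed by 0.192 (adjusted p = 9.99e-12 for the line by treatment term, 0.188 with limma). The difference of level between the lines was -0.691 with DMSO and -0.500 under emetine. The event held at least 944 reads in each library.

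DNM2 also has a pair of 139 nt exons (chr19:10906737-10906875 and chr19:10908056-10908194), of which a transcript generally uses either the first or the second. The pair was added after its values were seen. The exons are printed with the positions at which they differ in capitals; they are identical at 97 of 139 positions, or 69.8%.
DNM2 first 139 nt exon: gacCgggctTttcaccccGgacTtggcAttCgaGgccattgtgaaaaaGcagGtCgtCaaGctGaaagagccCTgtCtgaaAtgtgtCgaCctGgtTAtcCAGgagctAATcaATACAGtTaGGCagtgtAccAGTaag
DNM2 second 139 nt exon: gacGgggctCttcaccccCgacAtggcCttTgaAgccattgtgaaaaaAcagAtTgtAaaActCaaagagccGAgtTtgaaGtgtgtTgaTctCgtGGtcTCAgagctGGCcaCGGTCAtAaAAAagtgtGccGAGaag

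Of the inclusion reads of both exons, those of the first made up 93.4% and 91.3% in MCF10A with DMSO (95% Wilson intervals 92.2 to 94.4 and 90.1 to 92.4, which cover counting error only). Under emetine the shares were 79.8% and 79.1%. HMLE TWIST libraries gave 76.1% and 77.5% with DMSO, then 58.8% and 61.7% after emetine. The share was lower under emetine than with DMSO in both lines, and lower in HMLE TWIST than in MCF10A under either treatment. No test was made of these shares. The inclusion level of each exon against skipping of both was at least 0.923 in every library.

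**Figure D4:**
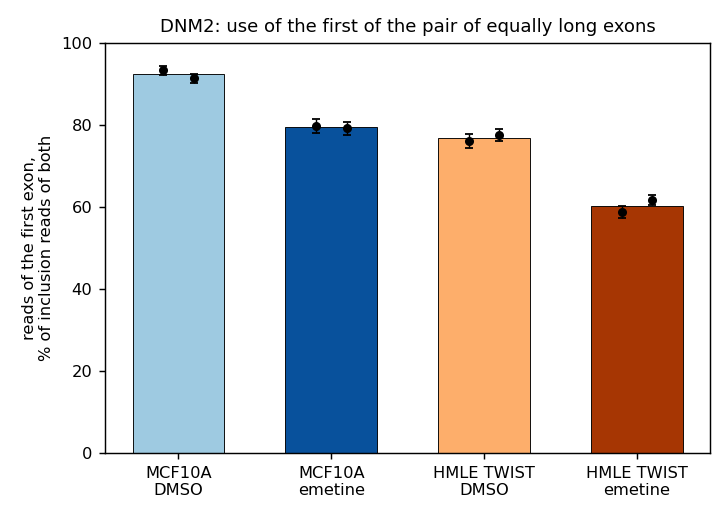
Share of inclusion reads of the first 139 nt exon of DNM2 among those of both exons (y axis, %) in the 4 groups. Bars are means of 2 libraries, points are libraries and whiskers are 95% Wilson intervals. The means are 92.3, 79.5, 76.8 and 60.3% from left to right.

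DNM1L has 2 cassette exons side by side, of 78 nt and 33 nt, both printed above and each present or absent in protein-coding transcripts. The 33 nt exon had levels of 0.740 and 0.665 in MCF10A with DMSO and 0.800 and 0.826 under emetine, and of 0.522 and 0.433 in HMLE TWIST with DMSO and 0.408 and 0.491 under emetine. The MCF10A emetine libraries were the highest and the HMLE TWIST groups overlapped. The level rose by 0.110 in MCF10A (adjusted p = 0.0106, 0.214 with limma), and the change in HMLE TWIST was -0.0275 (adjusted p = 0.529). The rise lost its call without the second listed DMSO library (0.0725, adjusted p = 0.211) or the second listed emetine library (0.0973, adjusted p = 0.0837). The line by treatment term gave -0.138 (adjusted p = 0.103). At least 164 reads covered the event in each library. In its other tested event, spliced from the 78 nt exon, the 33 nt exon had 0.748 and 0.651 in MCF10A with DMSO and 0.736 and 0.851 under emetine, and 0.619 and 0.618 in HMLE TWIST with DMSO and 0.574 and 0.567 under emetine. There the changes of 0.0941 and -0.0483 were not called (adjusted p = 0.106 and 0.605), at 71 or more reads per library.

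The 78 nt exon, named after its values were seen, was measured in 2 events whose difference was not tested. Spliced to the 33 nt exon it had mean levels of 0.417 ± 0.0446 and 0.429 ± 0.0373 in MCF10A and of 0.468 ± 0.0472 and 0.478 ± 0.0909 in HMLE TWIST. Spliced past it, in an event that shares its skipping junction with that of the 33 nt exon, it had 0.587 ± 0.00737 and 0.705 ± 0.0284 in MCF10A and 0.414 ± 0.023 and 0.423 ± 0.0066 in HMLE TWIST. The second event rose by 0.118 in MCF10A (adjusted p = 0.0271, 0.237 with limma). It lost its call when either DMSO library was left out (adjusted p = 0.0697 and 0.124) or the first listed emetine library (adjusted p = 0.244). A rare 64 nt exon (chr12:32862478-32862541) had mean levels of 0.00240 ± 0.00340 and 0.0799 ± 0.0253 in MCF10A and of 0 and 0.0402 ± 0.00348 in HMLE TWIST, changes under 0.1. The 163 nt exon (chr12:32866143-32866305) was nearly always included with DMSO, at 0.999 ± 0.00191 in MCF10A and 0.990 ± 0.000698 in HMLE TWIST. Under emetine it had 0.963 ± 0.00589 and 0.906 ± 0.02, changes of -0.0359 and -0.0838 that stayed under 0.1 (adjusted p = 0.000485 and 0.000107). The form that skips the 163 nt exon is annotated only in a decay-target transcript. Whether that form was made more often or lost more slowly was not tested.

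The clathrin chains themselves had few intermediate exons. The CLTB exon of 552 nt (chr5:175833158-175833709, minus strand), annotated only in a decay-target transcript, had levels of 0.00838 and 0.00808 in MCF10A with DMSO and 0.114 and 0.0953 under emetine. In HMLE TWIST it had 0.00527 and 0.00227 with DMSO and 0.0792 and 0.0728 under emetine. Every emetine library was above every DMSO library. The changes of 0.0963 and 0.0723 had adjusted p-values of 1.35e-120 and 5.29e-65 (0.0145 and 0.0124 with limma) and lay just under the threshold of 0.1, at 1526 or more reads per library.

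The light chain genes each have a 54 nt exon of the class included mainly in neurons (CLTA at chr9:36209264-36209317, plus strand; CLTB at chr5:175823480-175823533, minus strand). They are printed with differing positions in capitals, and 35 of 54 positions, or 64.8%, are identical.
CLTA 54 nt exon: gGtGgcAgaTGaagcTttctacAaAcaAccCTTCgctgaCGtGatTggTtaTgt
CLTB 54 nt exon: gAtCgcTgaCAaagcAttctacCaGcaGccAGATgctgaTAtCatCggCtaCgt

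Both were skipped in nearly all transcripts. The mean level of the CLTB exon lay between 0.00407 (HMLE TWIST DMSO) and 0.00637 (MCF10A emetine), and that of the CLTA exon between 0.000135 (MCF10A DMSO) and 0.000554 (HMLE TWIST emetine). CLTA's 36 nt exon had mean levels from 0.00212 to 0.00247. The 21 nt exon of CLTC, the heavy chain, had levels of 0.0132 and 0.0153 in MCF10A with DMSO and 0.00232 and 0.00138 under emetine. In HMLE TWIST it had 0.0398 and 0.0327 with DMSO and 0.00711 and 0.0111 under emetine. It was lower under emetine in all libraries of both lines, with changes of -0.0124 and -0.0272 (adjusted p = 0.000268 and 6.93e-10, 0.0225 and 0.0384 with limma), far under 0.1. These 4 exons were named after their values were seen.

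The untreated lines were compared over 46 events, of which 7 differed, or 15.2% against 6.19% of all 19301 events. In HMLE TWIST 1 was higher and 6 were lower, where 2.07% and 4.12% of all events were higher and lower. limma called 1 of the 46, the 12 nt exon of DNM2, and 0.187% of all events. That exon differed by -0.691, HMLE TWIST minus MCF10A (adjusted p = 1.73e-235, 0.0433 with limma). The 24 nt exon of PICALM differed by -0.270 (adjusted p = 7.97e-21, 0.120 with limma), and the 33 nt exon of DNM1L by -0.225 (adjusted p = 1.16e-05, 0.211 with limma). In its event spliced from the 78 nt exon the DNM1L 33 nt exon differed by -0.0805 and was not called (adjusted p = 0.426). The 150 nt and 129 nt forms of PICALM differed by -0.158 and -0.118 (adjusted p = 7.97e-10 and 1.60e-06, 0.279 and 0.303 with limma). The last lost its call without the second listed MCF10A DMSO library, at a difference of -0.0796. The event of the DNM1L 78 nt exon spliced past its neighbour differed by -0.173 (adjusted p = 0.00281, 0.263 with limma). The second event of the PICALM 60 nt exon differed by 0.300 (adjusted p = 0.00372, 0.194 with limma). Without the second listed MCF10A or HMLE TWIST DMSO library the last of these had adjusted p-values of 0.124 and 0.106, and the DNM1L event had 0.0516 without the second listed HMLE TWIST DMSO library.

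Cell type markers were counted as junction reads per 1000000 junction reads summed over all events of a library. Each line's table lists its own skipped-exon events, so a gene without a listed event has no value, whatever its expression, and these counts depend on which exons are listed. Of 10 mesenchymal markers all had a listed event in HMLE TWIST and 7 in MCF10A, where CDH2, COL5A1 and PDGFRB had none. Their summed levels were 44963 and 42543 in HMLE TWIST DMSO and 353 and 372 in MCF10A DMSO. Of 10 epithelial markers 8 had a listed event in MCF10A and 4 in HMLE TWIST; EPCAM and GRHL2 had none in either, and RAB25, ST14, KRT5 and KRT14 none in HMLE TWIST. Their sums were 88.7 and 86.3 in HMLE TWIST DMSO and 6122 and 6289 in MCF10A DMSO. CDH1, which defines epithelial cells, was listed in both lines, with a mean of 68.8 in MCF10A DMSO and 0.0110 in HMLE TWIST DMSO. The epithelial splicing regulators ESRP1 and ESRP2 had 41.6 and 31.5 in MCF10A DMSO, 16.4 and 10.3 under emetine, and at most 0.116 in either HMLE TWIST group. Under emetine the epithelial sum was 46583 and 47217 in the MCF10A libraries, of which LAMB3 gave a mean of 45816, against 4123 with DMSO. The other 7 listed epithelial markers all had a lower mean under emetine than with DMSO in MCF10A, among them CDH1 (19.5) and KRT5 (1781 with DMSO, 1000.3 with emetine). In HMLE TWIST the epithelial sum under emetine was 351 and 249, nearly all from LAMB3 (mean 299.9). The mesenchymal sum under emetine was 87.3 and 93.6 in MCF10A, against 30137 and 26752 in HMLE TWIST. The part of these genes and cell states in the exon differences was not tested. In such bulk libraries fewer cells of a type and less RNA per cell cannot be told apart.

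Whether emetine acted differently in the lines was tested over 45 events of the 9 genes, of which 3 differed, or 6.67% against 2.78% of all 19025 events. For 2 the change was higher in HMLE TWIST and for 1 lower, where 0.894% and 1.88% of all events were. These were the 12 nt exon of DNM2, the 24 nt exon of PICALM and the second event of the 60 nt exon of PICALM, with the values given above. limma called 0 of the 45 and 0% of all events.

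The other genes of the pathway were read from 3 lists. Of 56 further genes of clathrin-mediated endocytosis, 33 had a tested event in MCF10A and 41 in HMLE TWIST. There 19 of 128 events changed in MCF10A (9 higher, 10 lower; 14.8%) and 31 of 180 in HMLE TWIST (13 higher, 18 lower; 17.2%). For 8 mitochondrial fission and fusion genes, partners of DNM1L, the counts were 8 of 45 (6 higher, 2 lower) and 5 of 43 (1 higher, 4 lower). For 20 genes of other adaptor complexes and GGA adaptors they were 9 of 72 (2 higher, 7 lower) and 16 of 87 (7 higher, 9 lower). The median changes of the 3 lists were -0.000277, 0.00288 and 0.00208 in MCF10A and 0.000592, -0.00164 and -0.00233 in HMLE TWIST, beside -0.000168 and -0.00315 over all tested events and 0.00126 and -0.000354 over those of the 9 genes. Over the 3 lists 170 exons were tested in both lines, and 19 changed in the same direction in both, of which 7 rose. That is 11.2%, beside 8.97% of all 16870 exons tested in both lines and 2 of 39 exons of the 9 genes. No test of a list against other genes was made.

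**Figure D5:**
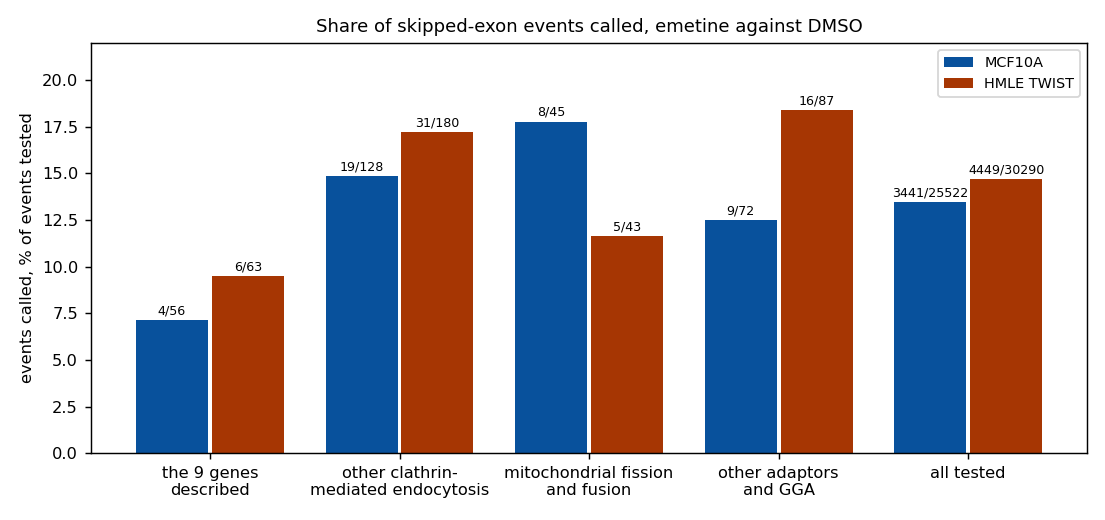
Share of tested skipped-exon events called under emetine (y axis, %) in MCF10A and HMLE TWIST, for the 9 genes described, the 3 further lists and all tested events. The numbers above the bars are events called and tested. The 9 genes have 7.14% and 9.52%, and all tested events 13.5% and 14.7%.

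NUMB, an adaptor that links Notch and integrins to endocytosis, gained a 144 nt exon in both lines. Its level rose from 0.476 ± 0.0386 to 0.921 ± 0.0122 in MCF10A, and in HMLE TWIST from 0.0497 ± 0.0311 to 0.380 ± 0.0470 (adjusted p = 8.27e-107 and 2.28e-53). The 82 nt exon of NECAP1, an AP2-binding protein, fell by 0.233 and 0.238 (adjusted p = 1.27e-13 and 4.62e-12). The 167 nt exon of AP2A2, an alpha subunit of AP2, fell by 0.164 and 0.238 (adjusted p = 8.52e-06 and 2.91e-14). The exon of TNK2, a kinase that binds clathrin, fell by 0.246 and 0.383 in its 96 nt form (adjusted p = 2.34e-12 and 1.12e-19) and by 0.324 and 0.471 in its 90 nt form (adjusted p = 5.67e-11 and 4.49e-17). A 206 nt exon of EPS15L1, a relative of the coat protein EPS15, rose by 0.340 and 0.302 (adjusted p = 7.64e-11 and 1.91e-10).

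BIN1, an amphiphysin that curves membranes and binds dynamin, changed at 2 exons in opposite directions. Its 129 nt exon rose by 0.234 in MCF10A and 0.276 in HMLE TWIST (adjusted p = 1.60e-08 and 4.04e-22, 0.0639 and 0.0462 with limma). Its 90 nt exon fell by 0.333 and 0.218 (adjusted p = 1.84e-16 and 6.25e-13). The other exons of the further lists named as called in both lines passed limma in both.

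A difference of the changes between the lines was called for 7 of 170 exons of the 3 lists, or 4.12%, against 468 of 16870 exons of all genes, or 2.77%. By events the counts were 4 of 100 (4%), 4 of 34 (11.8%) and 2 of 59 (3.39%) in the lists, against 2.78% of all 19025 events. The 4 events of the mitochondrial list lay in 2 genes. The largest differences among the 7 exons were those of ARRB2, CTTN, AP1G1 and AP1B1, none of which limma called (adjusted p from 0.181 to 0.328). The 31 nt exon of ARRB2, a beta-arrestin, had mean levels of 0.448 and 0.357 in MCF10A and 0.357 and 0.622 in HMLE TWIST, a difference of changes of 0.356 (adjusted p = 2.05e-06). The 111 nt exon of CTTN, cortactin, which binds actin and dynamin, went from 0.717 to 0.622 and from 0.800 to 0.416, a difference of -0.289 (adjusted p = 1.60e-13). AP1G1 and AP1B1, subunits of the AP1 adaptor of the trans-Golgi network, differed by -0.182 at a 136 nt exon and by -0.151 at a 9 nt exon (adjusted p = 0.0174 and 1.32e-06).

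By the authors' deposited table, 7 events of the 9 genes in MCF10A had a false discovery rate under 0.05 and a difference of at least 0.1, or 4.43% against 6.93% of all events in it; 2 of the 7 had under 20 reads in a library. In HMLE TWIST the authors' deposited table gave 8, with 1 under 20 reads, or 4.94% against 7.59% of all events. Of the 205 events, 129 could not be tested here in any comparison. They were spread over all 9 genes, from 3 events of CLTB to 25 of PICALM.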

How the data were processed

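The 9 genes, the further gene lists and the rules were chosen with earlier results of these data known. Total RNA was extracted with Trizol and polyA-selected for stranded paired-end TruSeq libraries, per the labels' protocols. The submitters' processing notes name STAR 2.5.3a and GRCh37; the rMATS version and annotation are not given in the sources used here. The deposited tables are skipped-exon output in rMATS format, 1 per line. They hold the authors' junction read counts per library, inclusion levels, p-value and FDR, the form lengths and a difference score, per the file headers. Library depth is known only as junction reads summed over events, in which reads recur: 78412292 to 83483642 per library in MCF10A and 90031966 to 91259363 in HMLE TWIST. The headers name only a first and a second sample; these were taken as DMSO and emetine from the order in the name of each table, so all directions under emetine rest on that order. Values in a cell carry no replicate number.

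For the inclusion level each form's count was divided by its effective length (99 for skipping), and the included form taken as a share of both. The authors' deposited score was recomputed to within 0.00142. Each event was fitted with a quasi-binomial logistic model (Python 3.11.15, numpy 2.4.6), all 8 libraries entering the line by treatment fit and 4 the other 3 fits. Dispersions were moderated with limma 3.58.1 (squeezeVar, R 4.3.3), not allowed under 1, and used in F tests, Benjamini-Hochberg adjusted over all events of the fit. The moderation gave every event of a fit the same dispersion (2.12, 2.08, 2.15 and 2.08 in the 4 fits), so small p-values rest on that shared value and on 2 libraries per group. Dispersion was estimated from libraries with an expected count of at least 5 of both forms. This replaced, after counts of calls over all events had been seen, a first version from all libraries, which called 0 events in the 3 fits with emetine once a replicate block was added; the first version was kept as an alternative. limma on log2 odds added 0.5 to each count. Data were simulated with log odds shifted by 1.5 in 200 events and, as the model assumes, the same dispersion for every event. Of the shifted events that moved by at least 0.1, 77.0, 71.4, 48.6 and 59.2% were called for MCF10A, HMLE TWIST, the line by treatment term and the untreated lines. False calls numbered 3, 2, 3 and 3 in that order. This setting cannot show the rate of false calls where spread differs between events.

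Exons described in full were those called in any comparison and, in each gene, the deepest with a level between 0.05 and 0.95 in a group; from the further lists, at most 8 exons called in both lines and 4 with the largest called difference between lines. All other exons were named after their values were seen. Exons were matched to GENCODE 29 by gene, exon length and the lengths of both introns. Alternatives tried were limma, other dispersions, other read minimums, no length correction, leaving out each library and a replicate block. Numbers of libraries did not pair across treatments: the correlation of first minus second listed library between DMSO and emetine was 0.0177 in MCF10A and 0.00667 in HMLE TWIST.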

Additional observations from a re-analysis of the deposited data

Results flagged for a closer look

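For 3 events of the 9 genes the change under emetine differed between MCF10A and HMLE TWIST by the test of the line by treatment term. The differences, HMLE TWIST minus MCF10A, were 0.192 for the DNM2 12 nt exon, 0.173 for the PICALM 24 nt exon and -0.316 for the second event of the PICALM 60 nt exon. The DNM2 exon had means of 0.932 and 0.864 in MCF10A with DMSO and emetine and of 0.241 and 0.364 in HMLE TWIST. limma gave adjusted p-values of 0.188, 0.259 and 0.295 for the 3 differences. On leaving out each library in turn the first 2 kept their calls, with differences of 0.170 to 0.213 and 0.150 to 0.196. The last lost its call without the second listed MCF10A DMSO, the second listed HMLE TWIST DMSO or the first listed HMLE TWIST emetine library (adjusted p = 0.236, 0.171 and 0.0528).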

How the results depend on the processing

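Over the alternatives, 215 of 270 recomputed values of the 20 called exon results kept their call, 55 lost it and 0 changed direction; of 522 values of results that were not called, 10 passed the thresholds and 11 changed direction. limma called 1, 3, 0 and 1 events of the 9 genes in MCF10A, HMLE TWIST, the line by treatment term and the untreated lines, against 4, 6, 3 and 7. Leaving out a library gave 2 to 6, 5 to 7, 2 to 3 and 5 to 8. With a replicate block, in which the first listed value was assumed to be replicate 1, the counts were 5, 7, 3 and 7; over all events they were 3603, 4665, 689 and 1308 against 3441, 4449, 528 and 1195. The dispersion from all libraries was the first version, replaced by the main one after counts of calls had been seen. It gave 4, 6, 3 and 7, and together with the replicate block 0, 0, 0 and 1. The cause was not tested. Leaving out a library changed direction, among results that were not called, over these ranges. In MCF10A they were -0.0558 to 0.0210 for PICALM 129 nt and -0.0714 to 0.00942 for PICALM 150 nt. In HMLE TWIST they were -0.0720 to 0.0169 for DNM1L 33 nt (0.0139 without the first listed emetine library) and -0.00729 to 0.0252 for DNM1L 78 nt spliced past its neighbour. For the line by treatment term they were -0.0663 to 0.0105 for PICALM 129 nt and -0.0757 to 0.00517 for PICALM 150 nt. Between untreated lines they were -0.0102 to 0.00114 for ITSN1 116 nt, -0.0435 to 0.0214 for ITSN1 83 nt, -0.00142 to 0.0302 for ITSN1 167 nt and -0.00523 to 0.0462 for PICALM 105 nt. Without length correction CLTB 552 nt passed 0.1 in both lines (0.173 and 0.134), while DNM1L 33 nt in MCF10A (0.0943) and PICALM 105 nt in HMLE TWIST (-0.0759) did not. Events with under 20 reads in a library were not tested, so changes in them were not detectable at this depth.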
